A study of Mus musculus with 8 samples.

Results

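Neuregulin and ErbB signalling in the adult mouse heart was described from the 8 genes Nrg1, Nrg2, Nrg4, Erbb2, Erbb3, Erbb4, Egfr and Hbegf, out of 32285 genes in each count matrix. The genes were taken by symbol, and all 8 were found. The series holds single-nucleus RNA libraries, made with 10x Genomics droplets from nuclei extracted from adult heart tissue, of female and male mice that either carried no transgene (nTg) or expressed cyclin A2 constitutively from a transgene (Tg, gene Ccna2). The labels list 8 libraries, and 5 had a matrix with as many columns as their own barcode list: 1 nTg female library, 2 Tg female libraries and 2 Tg male libraries. The 3 other matrices repeated the values of 3 of these and were not used. The promoter of the transgene, the age of the adult animals and the number of hearts behind a library are not given in the sources used here, so p-values measure only the spread between these libraries.

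Ccna2 itself was checked first in cardiomyocyte nuclei. It stood at 444 CPM (UMIs of a gene per 1000000 UMIs of the same nuclei) in the library labelled nTg female 1 and at 0.52 CPM in Tg female 1. Tg female 2 had 822 CPM, and the male libraries had 232 CPM (Tg male 1) and 143 CPM (Tg male 2). Both first female libraries thus went against their genotype labels, and each library is called by its label below. The sex labels matched Xist, which lay at 1179 to 1431 CPM in the 3 female libraries and at 0.699 and 7.69 CPM in the males. After filtering, 34659 nuclei were kept, between 5773 and 8817 per library, with a median of 2141 to 3053 UMIs. Pairs of libraries shared between 6 and 22 cell barcodes. Tg female 2 stood apart. It had the lowest total depth, and the 10 fibroblast markers summed to 941 CPM in its macrophages against 220 to 352 CPM in the other 4 libraries. Genes spanning over 100 kb held 35.5% of its cardiomyocyte UMIs, against 38.9% to 42.2% elsewhere.

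Neuregulins are ligands with an EGF-like domain that are made mostly as membrane-bound precursors, cut by sheddases and sensed by the receptor tyrosine kinases ErbB3 and ErbB4. ErbB2 binds no known ligand and acts as the shared partner of the other receptors, while ErbB3 has little kinase activity of its own and signals through its partner. In the heart the pathway is known from endocardial neuregulin acting on cardiomyocytes during trabeculation, from the heart failure that follows loss of Erbb2 in cardiomyocytes, and from its role in Schwann cells. EGFR and its ligand HB-EGF belong to the same family.

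Nuclei were clustered without the 8 genes, the other pathway genes, Ccna2 and sex-linked genes, and clusters were named from marker genes. There were 12316 fibroblast, 7022 endothelial, 6578 cardiomyocyte, 2525 macrophage, 2184 pericyte, 1345 endocardial, 781 lymphatic endothelial, 519 smooth muscle and 189 Schwann nuclei. These 9 types had at least 20 nuclei in each library and were ordered by level. T or NK cells (128 nuclei), mesothelial cells (105), B cells (79) and adipocytes (12) were too few for the ordering, and 876 nuclei in 3 clusters stayed unnamed. Unnamed nuclei made up 6.84% of Tg female 2, against 1.11% to 1.85% of the other libraries. The largest unnamed cluster had 337 of its 407 nuclei from Tg female 2. Levels by type are descriptions with no test, since types and levels come from the same nuclei. CPM are compared within a gene only, because UMI yield from nuclear RNA also depends on the length of a gene. The 2 largest cardiomyocyte clusters had 10 of 12 cardiomyocyte markers raised.

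For 6 of the 8 genes, 1 cell type stood above the other 8 in each of the 5 libraries. Among all 14191 genes that reached 10 CPM in a type, 37.3% did so, so the count of 6 is no more than a description of these genes. They were Nrg1 in endocardial cells, Nrg2 in macrophages, Nrg4 and Erbb4 in cardiomyocytes, Erbb3 in Schwann cells and Egfr in fibroblasts. The 2 others, Erbb2 and Hbegf, had ranges that overlapped between types.

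**Figure D1:**
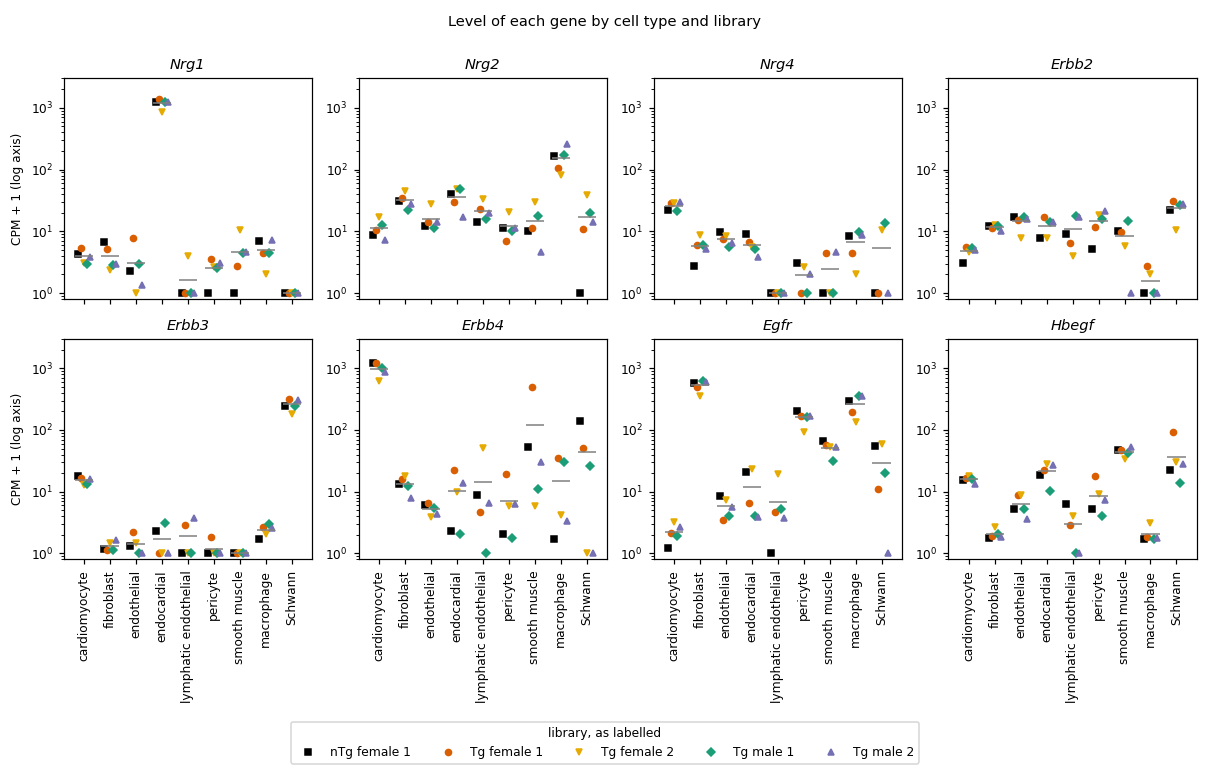
Level of each gene (CPM + 1, log axis) in 9 cell types, with 1 symbol per library and a grey line at the mean of the 5 libraries. Nrg1 is high in endocardial nuclei only among these types, Erbb4 lies near 1000 CPM in cardiomyocytes, Erbb3 has its high point in Schwann nuclei, and Erbb2 is low and spread over most types.

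Nrg1 (ENSMUSG00000062991, GRCm38 chromosome 8, 31814551 to 32884029, minus strand) encodes the best known cardiac neuregulin. In endocardial nuclei, the lining of the heart chambers, it measured 1255 CPM in nTg female 1, 1418 in Tg female 1, 849.6 in Tg female 2, 1244 in Tg male 1 and 1239 in Tg male 2, a mean of 1201 ± 210 CPM (SD, n = 5 libraries). Tg female 2 was the low library, and the other 4 lay close together. The next type, macrophages, reached 3.996 ± 2.10 CPM, so the ranges did not overlap. Endocardial nuclei held 91.7% of all Nrg1 UMIs while making up 1345 of 34659 nuclei.

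The Nrg1 signal was uneven among endocardial nuclei. Between 30.05% and 39.4% of them had a Nrg1 UMI in a library, against 0.285% of endothelial nuclei of the vessels (20 of 7022), where median depth was 1564 to 2201 UMIs compared with 2119 to 3194 in endocardial nuclei. In each library, nuclei with 10 or more Nrg1 UMIs held 64.7% to 83.7% of the endocardial Nrg1 UMIs, and one nucleus of Tg male 1 held 119. Of the 2 endocardial clusters, the one led by Npr3 and Smoc1 had a mean of 1556 ± 384 CPM and the one led by Hapln1 and Wnt9b had 267 ± 181 CPM, and the first was higher in each of the 5 libraries. Endothelial and lymphatic endothelial nuclei stayed at 2.06 ± 2.72 and 0.60 ± 1.34 CPM, the former with 9 endocardial markers summing to between 4.03% and 6.02% of their endocardial level. Schwann nuclei had no Nrg1 UMI in 189 nuclei, which allows a share of up to 1.59%. The 668 CPM in T or NK cells of Tg male 2 came from 1 nucleus with 31 UMIs.

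Nrg2 (ENSMUSG00000060275, chromosome 18, 36017652 to 36197380, minus strand), a paralogue of Nrg1, had its highest level in macrophages. It measured 167 CPM in nTg female 1, 105 in Tg female 1, 80.1 in Tg female 2, 169 in Tg male 1 and 257 in Tg male 2 (mean 156 ± 68.8, n = 5). The 2 Tg female libraries were the lowest, and every library was above the 15.8 to 47.4 CPM of endocardial nuclei, the next type. Macrophages with a UMI made up 11.04% to 30.8% of a library's macrophages, mostly with 1 UMI each. The 2 macrophage clusters, one led by F13a1 and Vsig4 and the other by H2-Eb1 and Ccr2, had much the same Nrg2 level, 156 ± 69.9 and 149 ± 60.5 CPM. By total amount over the pooled libraries, fibroblasts contributed about as much as macrophages, 31.7% and 30.04% of Nrg2 UMIs. The fibroblast share came from a level of 31.2 ± 8.8 CPM in far more nuclei. By library the shares ran from 22.5% to 43.3% in fibroblasts and from 10.7% to 47.0% in macrophages. Mesothelial nuclei, the covering layer of the heart, read 126 to 1008 CPM on 3 to 48 nuclei per library, with 46 of 105 nuclei holding a UMI. The cardiomyocyte cluster led by Cntn2 and Fgf12 had 84.0 ± 59.4 CPM, against 8.68 ± 4.49 and 8.53 ± 0.93 CPM in the 2 large cardiomyocyte clusters. It held 134 nuclei and had only 4 of 12 cardiomyocyte markers raised. With doublets kept, a cluster led by the same genes stayed unnamed.

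Nrg4 (ENSMUSG00000032311, chromosome 9, 55220222 to 55326844, minus strand), a ligand of ErbB4 known as a factor released by fat cells, was read in all 12 adipocyte nuclei, at 552 to 2186 CPM per library on 1 to 4 nuclei. Among the 9 larger types it was highest in cardiomyocytes, at 20.9 CPM in nTg female 1, 27.6 in Tg female 1, 28.1 in Tg female 2, 20.1 in Tg male 1 and 29.1 in Tg male 2 (mean 25.2 ± 4.3). Endothelial nuclei came next at 6.46 ± 1.65 CPM, with no overlap. The share of cardiomyocytes with a UMI was 12.2% to 17.2% at a median depth of 5752 to 8016 UMIs, and 2.47% after each nucleus was thinned to 1000 UMIs, against 0.52% of thinned endothelial nuclei. Cardiomyocytes held 70.8% of Nrg4 UMIs and adipocytes 5.95%. Lymphatic endothelial nuclei had none in 781, which allows up to 0.384%. Mesothelial nuclei had a UMI in 27 of 105.

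Hbegf (ENSMUSG00000024486, chromosome 18, 36504927 to 36515805, minus strand) encodes heparin-binding EGF-like growth factor, a ligand of EGFR and ErbB4. Smooth muscle nuclei measured 46.1 CPM in nTg female 1, 47.2 in Tg female 1, 33.4 in Tg female 2, 40.8 in Tg male 1 and 51.2 in Tg male 2 (mean 43.8 ± 6.9). Schwann nuclei followed at 36.1 ± 31.2, endocardial nuclei at 20.3 ± 7.2 and cardiomyocytes at 14.9 ± 1.7 CPM. Each of these neighbours overlapped in range. Cardiomyocytes, 6578 nuclei with the highest median depth of the ordered types, supplied 68.0% of Hbegf UMIs. Macrophages and fibroblasts were lowest at 1.04 ± 0.62 and 1.07 ± 0.35 CPM.

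Among the receptors, Erbb4 (ENSMUSG00000062209, chromosome 1, 68032186 to 69108059, minus strand), the neuregulin receptor with its own kinase activity, was the cardiomyocyte gene. Cardiomyocyte nuclei measured 1236 CPM in nTg female 1, 1201 in Tg female 1, 609.5 in Tg female 2, 1018 in Tg male 1 and 880.6 in Tg male 2 (mean 989 ± 256). Tg female 2 was again the lowest, and still above the highest value of the 8 other ordered types (500.3 CPM in smooth muscle of Tg female 1). The 12 adipocyte nuclei read 0 to 1793 CPM per library. Between 82.8% and 96.2% of cardiomyocytes had an Erbb4 UMI, against 0.85% of endothelial nuclei, and after thinning the shares were 56.2% and 0.43%. Cardiomyocytes held 88.0% of Erbb4 UMIs. The gene spans 1076 kb and shares its strand with the counted gene Gm16076, so reads of that locus may be split between them. In Tg female 2, genes spanning over 500 kb had a median of -0.22 on the log2 scale against the other 4 libraries in cardiomyocytes, and Erbb4 had -0.83. The part of that shift in the Erbb4 value was not tested.

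A higher Erbb4 level than in cardiomyocytes was seen in an unnamed cluster of 329 nuclei led by Cadps, Wif1, Dkk3, Cyp2e1 and Rspo3. Its nearest list was fibroblast with 6 of 10 markers raised. It stayed unnamed because its leading genes held no fibroblast marker but held Cyp2e1, a listed adipocyte marker. Its Erbb4 UMIs are therefore not part of the fibroblast level or of the ordering of types. Erbb4 measured 6083 CPM there in nTg female 1, 5043 in Tg female 1, 1922 in Tg female 2, 5605 in Tg male 1 and 4042 in Tg male 2. Every library was above its own cardiomyocytes, and on average 87.3% of the nuclei had a UMI. Ttn, the giant sarcomere protein, was at 74.1 to 263 CPM in these nuclei, and Egfr at 91.3 to 247 CPM. Smooth muscle nuclei split by library. They measured 500.3 CPM in Tg female 1, with 40 of 186 nuclei positive, against 4.77 to 52.2 CPM and 1 to 4 positive nuclei of 78 to 89 in the others. Summed cardiomyocyte markers in smooth muscle were 3492 CPM in Tg female 1 and 2974 to 5087 CPM in the others. The cause of the high Erbb4 value in Tg female 1 was not tested.

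Erbb3 (ENSMUSG00000018166, chromosome 10, 128567523 to 128589652, minus strand), the receptor with weak kinase activity, was highest in Schwann nuclei, the glia of cardiac nerves. They measured 246 CPM in nTg female 1, 313 in Tg female 1, 183 in Tg female 2, 242 in Tg male 1 and 308 in Tg male 2 (mean 258 ± 53.7) on 23 to 50 nuclei per library. Cardiomyocytes came second in every library at 14.4 ± 2.2 CPM (12.1 to 16.9), and the 7 other types had means of at most 1.42 CPM. Neither step overlapped. By total amount, cardiomyocytes supplied 80.8% of Erbb3 UMIs and Schwann nuclei 14.5%. Of 519 smooth muscle nuclei none had a UMI, which allows up to 0.578%.

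Erbb2 (ENSMUSG00000062312, chromosome 11, 98412470 to 98437716, plus strand), the ligandless partner, was low in every type. Schwann nuclei measured 21.4 CPM in nTg female 1, 30.3 in Tg female 1, 9.61 in Tg female 2, 25.4 in Tg male 1 and 26.7 in Tg male 2, on 12 positive nuclei in the 5 libraries together. Endothelial (13.7 ± 3.9), pericyte (13.6 ± 6.2), endocardial (11.2 ± 4.2) and fibroblast (10.8 ± 1.0 CPM) nuclei followed and overlapped. Cardiomyocytes lay near the bottom of the order at 3.72 ± 0.98 CPM, below the range of fibroblasts, and 2.83% of them had a UMI. Macrophages were lowest at 0.56 ± 0.80 CPM.

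Egfr (ENSMUSG00000020122, chromosome 11, 16752203 to 16918158, plus strand) had its lowest level among the 9 ordered types in cardiomyocytes, the ordered type in which Erbb4 was highest. Fibroblasts measured 574 CPM in nTg female 1, 505 in Tg female 1, 354 in Tg female 2, 624 in Tg male 1 and 601 in Tg male 2 (mean 532 ± 109). They held 83.2% of Egfr UMIs, and 42.9% to 69.3% of them had one. Macrophages were second (265 ± 98.2), then pericytes (159 ± 41.3, range overlapping macrophages) and smooth muscle (51.0 ± 12.5 CPM). Cardiomyocytes were the lowest type, at 0.21 to 2.22 CPM, below the 2.45 to 7.37 CPM of endothelial nuclei. Unlike Nrg2, Egfr differed between the macrophage clusters: the F13a1 and Vsig4 cluster had 300.2 ± 108 CPM and the H2-Eb1 and Ccr2 cluster 53.0 ± 18.1 CPM, in the same order in all 5 libraries. The antisense gene Egfros, counted separately, overlaps Egfr. How strands were counted is not given in the sources used here, and whether reads of Egfr and Egfros were fully separated was not checked. The same holds for Nrg2, Nrg4 and Erbb2, which each overlap a counted gene on the opposite strand (4930471G03Rik, Fbxo22 and Mien1).

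Nrg1 and its receptors lay mostly in different cell types. Nrg1 was highest in endocardial nuclei, where Erbb4 was 9.20 ± 8.66 and Erbb3 0.68 ± 0.97 CPM. Cardiomyocytes held most Erbb4 and Erbb3 UMIs, and Nrg1 there was 2.93 ± 1.01 CPM. Other ligands shared a cell type with a receptor: cardiomyocytes also held most UMIs of Nrg4 and Hbegf. Macrophages had both Nrg2 and Egfr, but Egfr is not among the neuregulin receptors named above. Of those receptors, Erbb3 was 1.42 ± 0.52 CPM and Erbb4 14.0 ± 16.4 CPM in macrophages.

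**Figure D2:**
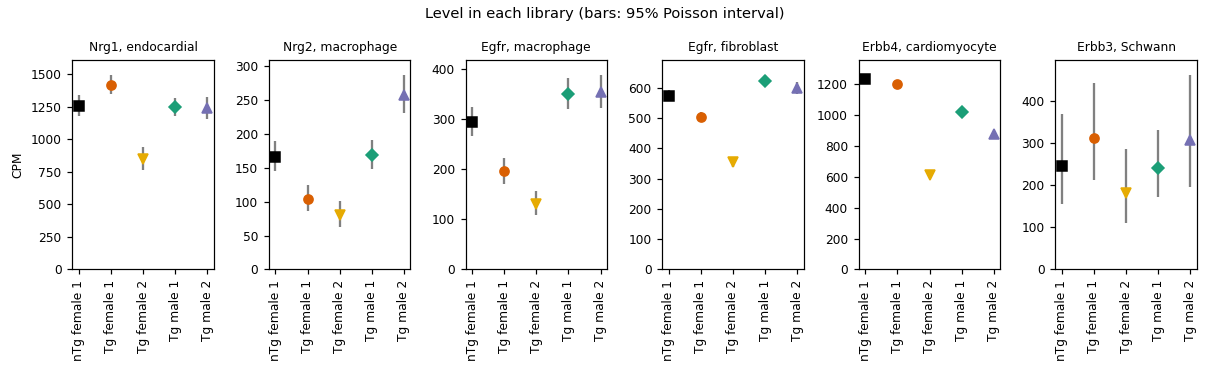
Level in CPM (linear axis from 0) of 5 genes in 6 gene and cell type pairs, with 1 symbol per library and bars for the 95% Poisson interval of the UMI count. Tg female 2 is the lowest library in all 6 panels, and the 2 Tg male libraries are the highest for Egfr in macrophages and in fibroblasts.

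For each gene, the 3 genes most like it over the 9 types were found by Pearson's r of mean log2(CPM + 1). These correlations share libraries and depth and are given without a p. Erbb4 was closest to Usp28 (r = 0.992), Clec18a and Gm15932 (both 0.989). Egfr was closest to its antisense gene Egfros (0.995), then Lgals1 (0.975) and Lrp1 (0.959). Nrg1 was closest to Lrfn5 (0.982), Kcnb2 (0.975) and Gm45904 (0.974), and Nrg2 to Hps1 and Zfp90 (both 0.968) and Phax (0.965). Erbb3 was closest to Gm49808, Acsbg1 (both 0.980) and Unc80 (0.976), and Erbb2 to Pard3bos3 (0.960), Tmem263 (0.944) and Cdc42ep1 (0.943). Nrg4 was closest to Mir155hg (0.946), Manea (0.941) and Rrs1 (0.940), and Hbegf to Dmd (0.843), Prc1 (0.831) and Ap3m1 (0.8294).

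The rest of the pathway was read from 77 listed genes. Of 7 other ligands, 3 reached 10 CPM in a type. Egf was a cardiomyocyte gene at 75.6 ± 25.8 CPM, above the 16.3 CPM that lymphatic endothelial nuclei reached at most. Tgfa, another EGFR ligand, was shared by lymphatic endothelial (41.6 ± 9.5) and endocardial nuclei (mean 40.7 CPM), while Nrg3 (16.97 ± 18.4 CPM in Schwann nuclei) and Btc (4.27 ± 0.96 CPM in cardiomyocytes) were low. All 9 sheddases and relatives reached 10 CPM. Adam17, a main sheddase of ErbB ligands, was highest in smooth muscle (119 ± 14.5 CPM) and macrophages (mean 117 CPM), with overlap. Adam10 had its highest mean in lymphatic endothelial nuclei (362 ± 52.6 CPM), overlapping endocardial nuclei, and Adam9 overlapped between fibroblasts (147 ± 16.6) and macrophages (146 ± 22.3 CPM). Adam19, which can cut neuregulin, was highest in macrophages (498 ± 129 CPM, no overlap with fibroblasts). Bace2 was highest in endocardial nuclei (345 ± 83.0 CPM, no overlap with endothelial nuclei).

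Of 12 receptor regulators, 4 had a range in their highest type above that of the type with the second-highest mean. Of all genes reaching 10 CPM, 25.9% had a range above that of every other type. That rule is stricter, so the shares cannot be set against each other. The ubiquitin ligase Wwp1 was highest in macrophages (1415 ± 140 CPM), as was the endocytic adaptor Eps15 (560 ± 41.8), whereas Nedd4 was shared by fibroblasts (569 ± 49.0) and pericytes (mean 532 CPM), and Itch had its highest mean in Schwann nuclei (430.2 ± 38.6), overlapping macrophages. Of 32 adaptors and kinases, 11 had a range above that of the type with the second-highest mean, and none of them in cardiomyocytes. No share of all genes is given for this rule or for cardiomyocytes, so these counts are no more than a description. Gab2, a docking protein, was highest in fibroblasts (1686 ± 260 CPM), and the focal adhesion kinase Ptk2 in endothelial nuclei (801 ± 77.6 CPM). Of 17 early response genes, 13 reached 10 CPM in a type. The Ras pathway inhibitor Spred1 had its highest mean in macrophages (363 ± 104), Spred2 in endothelial nuclei (265 ± 37.7) and Jun in smooth muscle (66.8 ± 43.4 CPM), each overlapping the next type. Etv5 was highest in macrophages (90.1 ± 24.0 CPM), with no overlap with pericytes, the type with the second-highest mean.

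The 2 Tg female and 2 Tg male libraries were compared in 8 cell types with at least 50 nuclei in each library. Summed UMI counts entered edgeR's quasi-likelihood test, with Benjamini-Hochberg adjustment over all genes of a type. Ccna2 in cardiomyocytes was 0.52 CPM in Tg female 1, 822 CPM in Tg female 2, and 232 and 143 CPM in the males. The female arm was thus mixed in Ccna2 level, and the part of this in the sex values was not tested. Over the 8 types, 158 of 86356 tests passed an adjusted p of 0.05, which is 0.183%. Of the 64 gene and type pairs, 33 had enough counts to be tested and none was called. At an unadjusted p under 0.05 there were 6 of 33 (18.2%, against 7.75% of all tests). DESeq2 called 2 of the gene and type pairs, against 570 calls over all genes. Leaving out Tg female 1 gave 7 calls, Tg female 2 gave 4, Tg male 1 gave 2 and Tg male 2 gave 1, while the calls over all genes went from 158 to 3594, 1338, 773 and 587. For 11 of the 33 pairs the 2 female and 2 male libraries did not overlap, against 37.8% of all tests.

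Of these 6, 2 were in macrophages. Egfr there was 196 and 131 CPM in the Tg female libraries and 350.1 and 353 CPM in the Tg male libraries, a log2 difference of -1.11 (SE 0.23, edgeR adjusted p = 0.136). In macrophages edgeR called 0.197% of all genes, and the sexes did not overlap for 38.4% of them. Nrg2 was 105 and 80.1 CPM in the females and 169 and 257 CPM in the males, a log2 difference of -1.22 (SE 0.26, edgeR adjusted p = 0.141). The female and male libraries did not overlap for either gene, but the other female library, nTg female 1, had 295 CPM of Egfr and 167 CPM of Nrg2, nearer to the males. DESeq2 gave adjusted p = 0.0160 for Egfr and 0.0339 for Nrg2 in macrophages, where it called 45 of 19980 genes. The calls changed when single libraries were left out, but each such fit left 1 library in an arm. The log2 difference of Egfr was -1.48 without Tg female 1 and -0.84 without Tg female 2. That of Nrg2 was -1.47 without Tg female 1, -1.02 without Tg female 2 and -1.50 without Tg male 1. Over 12 alternatives the log2 difference ran from -1.48 to -0.76 for Egfr and from -1.50 to -0.85 for Nrg2. The highest adjusted p over these alternatives was 0.646 for Egfr and 0.562 for Nrg2. Since the 2 arms did not overlap for either gene, the sign was largely fixed beforehand. Macrophages of the H2-Eb1 and Ccr2 cluster made up 18.0% and 13.6% of macrophages in the Tg females and 15.1% and 9.83% in the Tg males, and within the larger cluster Egfr was 226 and 149 CPM in the Tg females and 402 and 382 CPM in the Tg males.

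In fibroblasts, Egfr was 505 and 354 CPM in the Tg females and 624 and 601 CPM in the Tg males (log2 difference -0.59, SE 0.23, edgeR adjusted p = 0.428), while Nrg2 was 34.0 and 44.4 against 20.8 and 26.8 CPM (0.63, SE 0.21, edgeR adjusted p = 0.333). In fibroblasts edgeR called 0.446% of all genes, and the sexes did not overlap for 41.6%. The Nrg2 difference was positive in fibroblasts and negative in macrophages, neither passed the threshold, and the difference between the cell types was not tested. Hbegf in endothelial nuclei was 7.95 and 7.88 against 4.20 and 2.68 CPM (1.12, SE 0.42, edgeR adjusted p = 0.438). Erbb4 in fibroblasts was 14.8 and 16.97 against 11.49 and 7.03 CPM (0.68, SE 0.28, edgeR adjusted p = 0.488). For Erbb4 in cardiomyocytes the difference was -0.10 (SE 0.34) and for Nrg1 in endocardial nuclei -0.18 (SE 0.29), with the Tg female libraries at both ends of the range. Of the pathway genes, 461 gene and type pairs were tested and none was called by edgeR, with 41 at an unadjusted p under 0.05 (8.89%, against 7.75% of all tests) and 2 called by DESeq2. Among these was Pik3r1, a regulatory subunit of PI3-kinase, in cardiomyocytes (log2 difference -0.80, DESeq2 adjusted p = 0.0153). The median log2 difference was -0.048 over the pathway pairs and 0.14 over the 33 pairs, against medians of 0.0058 to 0.025 over all genes of a type.

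**Figure D3:**
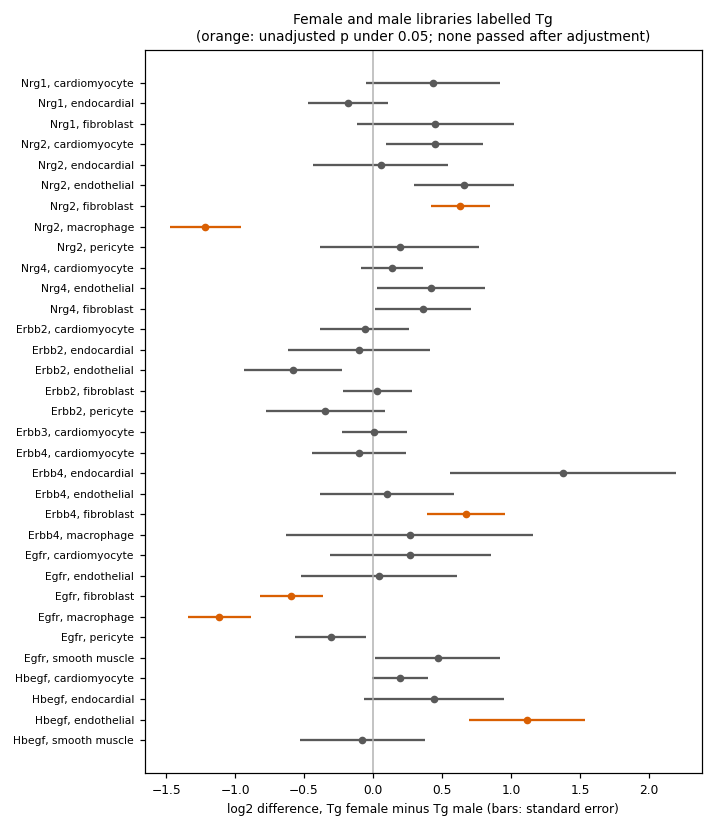
Log2 difference between the 2 Tg female and the 2 Tg male libraries for the 33 gene and cell type pairs tested, with standard errors. The 6 orange pairs had an unadjusted p under 0.05, with Nrg2 and Egfr in macrophages lowest at -1.22 and -1.11.

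With a single nTg library there was no test of genotype. Ccna2 in cardiomyocytes of nTg female 1 (444 CPM) and Tg female 1 (0.52 CPM) also went against their labels. The values below therefore compare labels only. Of 34 gene and type pairs with a mean of at least 10 CPM, nTg female 1 lay inside the range of the 4 Tg libraries in 24, above it in 6 and below it in 4. It was outside the range and at least 2-fold from the Tg mean in 4 of the 34, against 6.25% of 88088 pairs over all genes. These were Erbb2 in pericytes (4.16 against 10.9 to 19.98 CPM), Erbb4 in macrophages (0.73 against 2.34 to 34.3 CPM), Nrg2 in Schwann nuclei (no UMI in 23 nuclei, against 10.1 to 38.5 CPM) and Erbb4 in Schwann nuclei (139 against 0 to 50.4 CPM, with 12 of 13 UMIs in 1 nucleus). None of them was a main site of its gene. In the main sites, Nrg1 in endocardial nuclei, Nrg2 in macrophages, Nrg4 in cardiomyocytes, Erbb3 in Schwann nuclei and Egfr in fibroblasts were inside the Tg range, and Erbb4 in cardiomyocytes was just above it (1236 against 610 to 1201 CPM).

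Cardiomyocyte nuclei with 10 or more Ccna2 UMIs were compared with those having none, in the 4 libraries with at least 20 of each, which left out Tg female 1. There were 109 such nuclei in nTg female 1, 116 in Tg female 2, 70 in Tg male 1 and 36 in Tg male 2. In the same order of libraries, Erbb4 was 1081 against 1249 CPM, 553 against 624 CPM, 964 against 1020.2 CPM and 935 against 881 CPM, so the ratios ran from 0.865 to 1.06 with no common direction. Only Nrg2 went the same way in all 4 libraries, at 2.42 to 6.25 CPM with Ccna2 against 6.19 to 17.7 CPM without. This rested on 1 to 5 Nrg2 UMIs in the Ccna2 nuclei of each library. No share of all genes with a common direction is given here, so the count of 1 gene is no more than a description. The other 6 genes were mixed in direction. Nuclei were selected within libraries, so these values have no test.

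**Figure D4:**
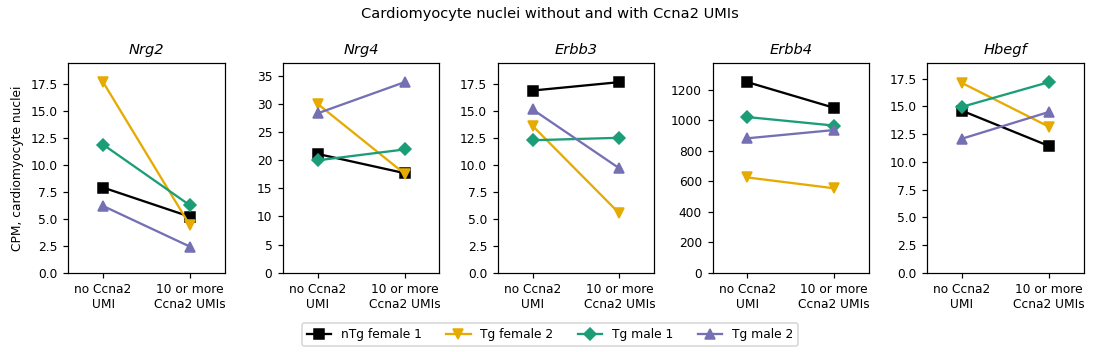
CPM of 5 genes (linear axis from 0) in cardiomyocyte nuclei with no Ccna2 UMI and with 10 or more, with a line for each of 4 libraries. Lines for Nrg2 fall in all 4 libraries, and those for Nrg4, Erbb3, Erbb4 and Hbegf cross or differ in direction.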

How the data were processed

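Single-nucleus RNA of adult mouse heart was measured with 10x Genomics libraries, per the labels' protocols. The deposited matrices hold UMI counts per gene and barcode, as whole numbers without normalization, written by Cell Ranger 7.0.0 per the file headers, and the submitters' processing notes name the mm10 build. Gene positions come from GENCODE M21 (GRCm38), whose identifiers matched 99.6% of the 32285 genes. Totals ran from 25045167 to 38593706 UMIs per library used.

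Barcodes with at least 200 genes and under 5% mitochondrial UMIs were kept, and doublets called by scrublet in scanpy 1.11.5 (expected rate 6%, 5.16% to 9.68% called) were removed. Nuclei were clustered on 2000 variable genes, 30 principal components centred per library and 15 neighbours (leidenalg 0.10.2, resolution 1). A cluster was named where at least 3 markers were raised with a lead of 0.5 (log2) over the next type. Its leading genes also had to hold no more markers of another type than of its own, and fewer than 3 cell cycle genes. A cluster of low depth also needed a marker of its own type among them. CPM were computed from summed counts, with 95% Poisson intervals, and shares with exact Clopper-Pearson intervals. Both cover counting error only. For a count of 0 the limit is 3 counts. Nuclei were also thinned to 1000 UMIs.

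Sex was tested with edgeR 4.0.16 (quasi-likelihood, TMM), and DESeq2 1.42.0 served as an alternative. The edgeR step was checked on simulated counts. Alternatives covered doublets, resolution, scaling, filters, each library left out and the replicate numbers. The members and gene lists were chosen with earlier results of these data known. Named genes were all 8 members, pathway genes called between the sexes, up to 4 genes per pathway list with the largest mean CPM, and the 3 genes most like each member in genes of at least 10 CPM. The genes defining clusters, Bace2 and Pik3r1 under DESeq2 were named after their values were seen. Some pathway genes that this rule names are not reported here.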

Additional observations from a re-analysis of the deposited data

Results flagged for a closer look

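Among 35 gene and cell type pairs with a mean of at least 10 CPM, 4 had 1 of the 4 Tg libraries far from the others. The nominal rate of this rule is 5% of groups. No share over all genes is given here, so the 4 are not read as an excess. Erbb4 in smooth muscle measured 500.3 CPM in Tg female 1 against 4.77 to 29.3 CPM in the other 3. The level rested on 286 UMIs in 40 of 186 nuclei, 14 of which had 5 or more, and the summed fibroblast markers were 773 CPM there against 384 to 984 CPM. Erbb4 in lymphatic endothelial nuclei measured 51.0 CPM in Tg female 2 against 0 to 5.44 CPM, with 14 of its 17 UMIs in 1 nucleus. Egfr in pericytes measured 91.8 CPM in Tg female 2 against 162 to 169 CPM, in the library where summed fibroblast markers in pericytes were 1396 CPM against 633 to 814 CPM in the other 4 libraries. Their part in the Egfr value was not tested. Nrg4 in cardiomyocytes measured 20.1 CPM in Tg male 1 against 27.6 to 29.1 CPM.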

How the results depend on the processing

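The count of 6 genes apart in 1 cell type was 5 with doublets kept, 7 without Tg female 1 or without Tg female 2, and 6 under the 6 other alternatives. The 4 pairs with nTg female 1 outside the Tg range and at least 2-fold from the Tg mean became 3 to 6. The count of genes with a common direction in Ccna2 nuclei stayed at 1 under both alternatives. Of the 8 levels in the highest type, 1 moved by more than the spread between libraries, Erbb3 in Schwann nuclei, at 193 CPM with doublets kept, and Hbegf alone changed its highest type, to Schwann nuclei, with the mean of each nucleus' own CPM. Thinning to 1000 UMIs lowered every mean share of nuclei with a UMI: Nrg1 in endocardial nuclei from 35.5% to 26.4%, Nrg2 in macrophages from 20.9% to 11.2%, Nrg4 in cardiomyocytes from 14.1% to 2.42%, Erbb2 in Schwann nuclei from 6.55% to 2.48%, Erbb3 in Schwann nuclei from 47.6% to 22.1%, Erbb4 in cardiomyocytes from 91.8% to 55.0%, Egfr in fibroblasts from 60.8% to 35.5% and Hbegf in smooth muscle from 10.7% to 2.48%.

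Between the sexes, the 0 calls among the 8 genes became 3 without a filter on low counts, 2 with DESeq2 and 1 to 7 when a library was left out. Pathway calls went from 0 to 13 without a filter, 2 with DESeq2, 1 with doublets kept and 0 to 17 with a library left out. Calls over all genes went from 158 to 1887 without a filter, 570 with DESeq2, 62 with 5 libraries and no genotype term, and 587 to 3594 with a library left out, where the lone library of an arm is assumed to vary like the others. Without Tg female 1, 7 member pairs passed, and without Tg female 2, 4. Erbb4 in smooth muscle passed in 3 of these fits, on the level of Tg female 1. With the replicate number as a block the calls were 2 members, 5 pathway pairs and 769 genes, and same-numbered libraries deviated together with r of -0.034 to 0.14 over 8 cell types, with 2 pairs only, so the numbers were not taken as a pairing. The causes were not tested. Depth limits the small types most, with 23 to 50 Schwann and 78 to 186 smooth muscle nuclei per library.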
